A study of Mus musculus with 4 samples.

Results

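The sestrins, REDD1 and the core regulators of mTORC1 were followed through 10 genes, chosen by symbol: Sesn1, Sesn2, Sesn3, Ddit4, Ddit4l, Deptor, Mtor, Rptor, Tsc1 and Tsc2. Each was read by 1 probe set, so all 10 were measured, out of 19505 named genes on the array. The samples were cultures of Neuro-2a (IFO50081), a neuroblastoma line from a mouse of Albino strain A. Semi-confluent cells received the pyrethroid insecticide deltamethrin at 30 µM, or the vehicle alone, and both groups were in 0.1% DMSO for 24 h. Each group had 2 Clariom S Mouse arrays (replicates 1 and 2). Every value comes from this 1 line at 1 dose and 1 time, and nothing in the labels says that the replicates were separate cultures, so p-values measure the spread between these arrays, which may be technical.

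mTORC1 is a protein kinase complex at the lysosome that drives protein synthesis and cell growth and holds back autophagy when nutrients and growth factors are plentiful. Sestrins and REDD1 are inhibitors of it that cells make under stress. Sestrins bind the GATOR2 complex and so keep the Rag GTPases from bringing mTORC1 to the lysosome, and sestrin 2 also senses leucine; REDD1 acts through the TSC1 and TSC2 complex, which switches off the GTPase Rheb. REDD1 is known to be induced in stressed neurons, and TSC1 and TSC2 are the genes of tuberous sclerosis.

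None of the 10 genes was called changed. Sesn2, Ddit4 and Tsc1 were higher on both deltamethrin arrays than on both vehicle arrays, as were 20.3% of all probe sets. The highest estimates were 1.73-fold for Sesn2 and 1.56-fold for Ddit4. The 2 genes passed an adjusted p of 0.05 when the variance was fitted as a function of the level, and not without that. Called means an adjusted p below 0.05 in limma, with Benjamini-Hochberg adjustment over all 22206 probe sets. By this rule 0 of the 10 members passed, where 0.432% of all probe sets did. The smallest called change on the array was 1.22 on the log2 scale, larger than any estimate among the members. At an unadjusted p below 0.05, 2 members were higher (Sesn2 and Ddit4) and 0 were lower, against 6.83% of all probe sets that were higher at that level. With the mean-variance trend the same 2 members passed, both higher. In that fit 3.63% of all probe sets passed in either direction and 2.25% were higher. Those shares include dim probe sets, while 9 of the 10 members were above the median level.

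**Figure D1:**
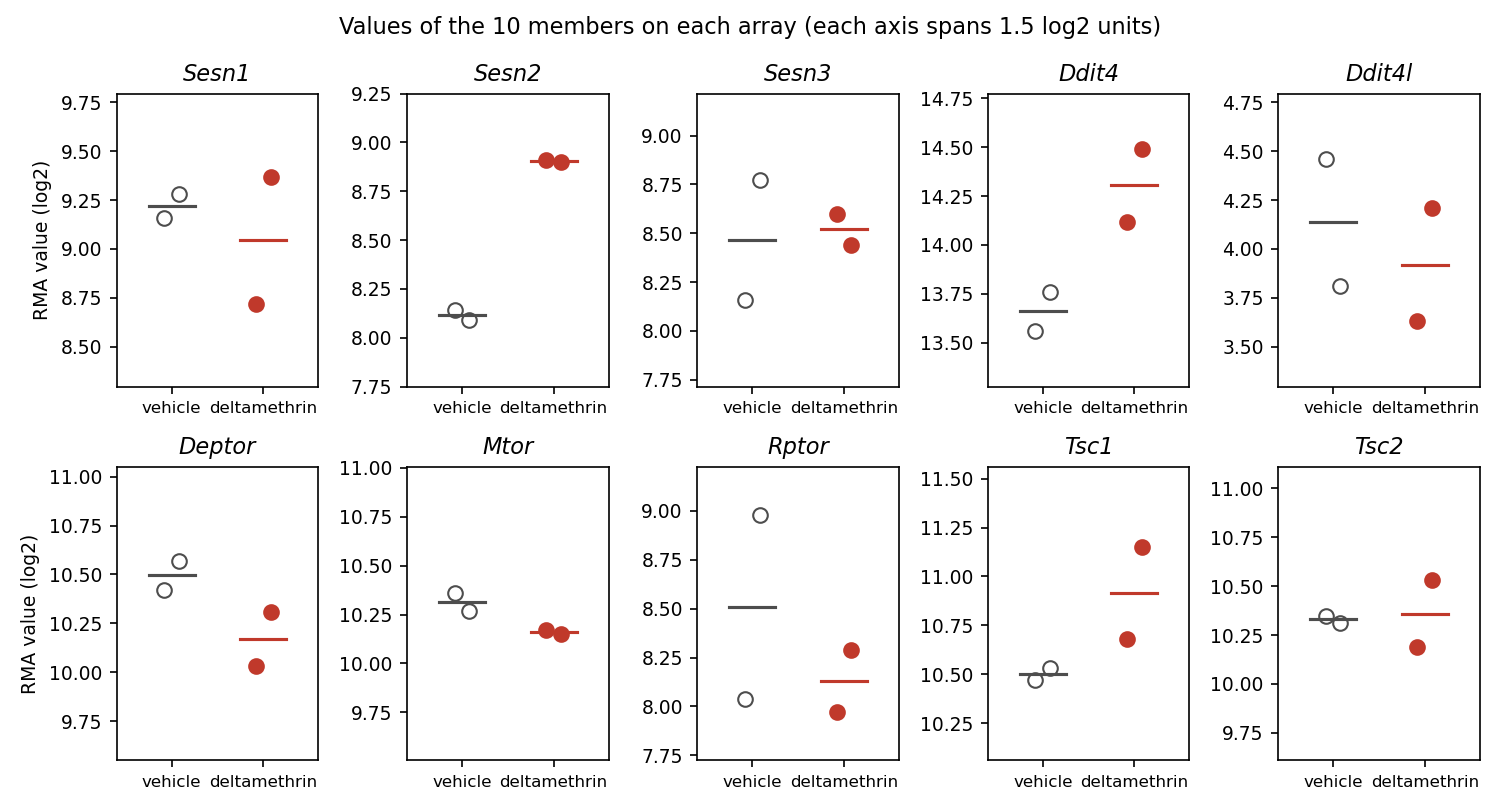
RMA value (log2) of each member on the 2 vehicle arrays (open circles) and the 2 deltamethrin arrays (filled circles), with the group mean as a bar; replicate 1 is on the left within each group. The groups are apart for Sesn2, Ddit4, Tsc1, Deptor and Mtor and overlap for the other 5 genes.

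Sesn2 encodes sestrin 2, a leucine-sensing sestrin and a known target of ATF4, NRF2 and p53. It read 8.14 and 8.09 on the vehicle arrays and 8.91 and 8.90 on the deltamethrin arrays (log2 values, replicates 1 and 2). Replicates lay within 0.05 of each other and the groups were 0.76 apart. The log2 fold change was 0.79 ± 0.16 (SE, n = 2 arrays per group), with a 95% interval of 0.40 to 1.18, which is 1.32-fold to 2.27-fold. SE and interval, here and below, use the variance moderated by limma over all probe sets, not the spread of the gene's own arrays alone. The adjusted p of limma was 0.136 without and 0.0479 with the mean-variance trend, where the SE was larger, at 0.19. In these bulk RNA samples a change in the share of cells that express a gene cannot be told apart from a change in RNA per cell.

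Ddit4 encodes REDD1, which is induced by low oxygen, DNA damage, glucocorticoids and ATF4. Its log2 values were 13.56 and 13.76 with vehicle and 14.12 and 14.49 with deltamethrin. The lower deltamethrin array was 0.36 above the higher vehicle array, a gap close to the 0.37 between the deltamethrin replicates. The log2 fold change was 0.65 ± 0.20 (SE, n = 2), with a 95% interval of 0.17 to 1.12. The adjusted p of limma was 0.251, and 0.0380 with the trend, where the SE of this bright probe set was 0.14.

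Since these 2 genes lay highest together, the 250 bases before the start of each are shown here, from RefSeq (GRCm38.p6), 5′ to 3′ in the direction of the gene. The Sesn2 stretch is chr4:132510457-132510706 (minus strand) and the Ddit4 stretch is chr10:59951771-59952020 (minus strand). Capitals mark ATTGG, which is the CCAAT box read on the other strand, and in Ddit4 also the hypoxia core ACGTG.
Sesn2: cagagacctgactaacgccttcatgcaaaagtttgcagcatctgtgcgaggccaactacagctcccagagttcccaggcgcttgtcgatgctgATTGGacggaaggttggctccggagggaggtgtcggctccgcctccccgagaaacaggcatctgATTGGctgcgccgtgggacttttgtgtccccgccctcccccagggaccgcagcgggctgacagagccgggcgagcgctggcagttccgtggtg
Ddit4: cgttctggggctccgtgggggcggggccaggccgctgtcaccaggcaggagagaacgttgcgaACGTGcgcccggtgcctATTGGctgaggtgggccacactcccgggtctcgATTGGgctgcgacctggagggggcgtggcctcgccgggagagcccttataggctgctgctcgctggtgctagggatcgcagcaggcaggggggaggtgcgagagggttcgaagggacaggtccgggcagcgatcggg
Each stretch holds 2 CCAAT boxes, at 157 and 93 bases before the start of Sesn2 and at 170 and 137 before that of Ddit4. CCAAT boxes are bound by the general factor NF-Y. The CCAAT box was added to the search after the sequences were read, and 33.8% of the 32851 promoter stretches in the table hold it. Among members it was also present before Sesn1, Sesn3 and Mtor, whose log2 fold changes were -0.18, 0.06 and -0.16. The ACGTG core, part of the site bound by hypoxia-inducible factors, lies 187 bases before the start of Ddit4 and is also found before Rptor, and 16.6% of all stretches hold it. The ATF4-type TGATGNAA, the E-box CACGTG (which contains ACGTG) and the CRE TGACGTCA were in 0 of the 10 stretches of the members, against 3.45%, 6.02% and 1.55% of all stretches, with both strands searched. A match is a run of letters and not a measured site. The table held stretches for 9 members, with 2 for Sesn1; Deptor had no entry.

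The other sestrins did not separate by group. Sesn1, the p53- and FoxO-induced sestrin, read 9.16 and 9.28 with vehicle and 8.72 and 9.37 with deltamethrin, so the deltamethrin arrays lay on either side of the vehicle pair. Its estimate was -0.18 ± 0.24 (SE, n = 2; limma adjusted p = 0.813), and it was 0.15 without deltamethrin replicate 1. Sesn3, the sestrin most tied to FoxO factors, read 8.16 and 8.77 with vehicle and 8.60 and 8.44 with deltamethrin. Both deltamethrin arrays lay between the vehicle arrays, and the estimate was 0.06 ± 0.24 (adjusted p = 0.948). Its sign turned under quantile normalization (-0.013), without vehicle replicate 1 (-0.25) and without deltamethrin replicate 1 (-0.025).

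Within each array the log2 value of Sesn2 minus that of Sesn1 ran from -1.19 to -1.02 with vehicle and from -0.47 to 0.19 with deltamethrin. The response of Sesn2 thus exceeded that of Sesn1 by 0.97, and that of Sesn3 by 0.74. The same measure put the response of Ddit4 above that of Ddit4l by 0.86 and that of Tsc1 above that of Tsc2 by 0.39. In all 4 comparisons, which were picked after the values were seen, the groups did not overlap. How often other gene pairs do so was not counted. Among single probe sets, 20.3% lay above and 23.5% below without overlap. The exact two-sided permutation test gave p = 0.333 for each (0.333 adjusted over the 4), the smallest value that 2 arrays against 2 allow. The design can thus give no such test a p below 0.05.

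Ddit4l encodes REDD2, the paralog of REDD1 known from skeletal muscle. Its probe set was the single member with a mean below the median of all probe sets, at 4.46 and 3.81 with vehicle and 3.63 and 4.21 with deltamethrin. The groups overlapped and the estimate was -0.22 ± 0.29 (limma adjusted p = 0.804). It turned to 0.11 without vehicle replicate 1 and to 0.075 without deltamethrin replicate 1. No detection call was used here, so it is not known whether this dim reading is above background.

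**Figure D2:**
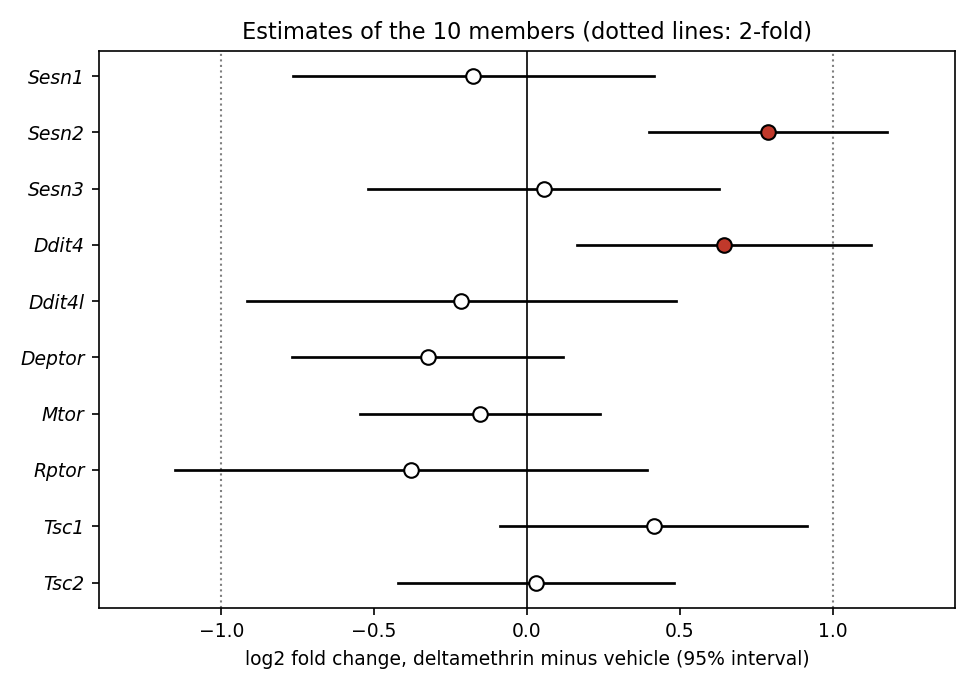
Log2 fold change (deltamethrin minus vehicle) of each member with its 95% interval from limma; filled points passed an adjusted p of 0.05 with a mean-variance trend, and none passed without it. The intervals of Sesn2 (0.40 to 1.18) and Ddit4 (0.17 to 1.12) lie above 0, and the other 8 intervals include 0.

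Of the complex that switches off Rheb, the scaffold gene Tsc1 (hamartin) was higher on both deltamethrin arrays, and Tsc2 (tuberin, the GTPase-activating subunit) was not. Tsc1 read 10.47 and 10.53 with vehicle and 10.68 and 11.15 with deltamethrin. The deltamethrin replicates were 0.47 apart while the gap between groups was 0.15. The estimate was 0.42 ± 0.21 (SE, n = 2; limma adjusted p = 0.444), and it was 0.18 without deltamethrin replicate 2. Tsc2 read 10.35 and 10.31 with vehicle and 10.19 and 10.53 with deltamethrin, on either side of the vehicle values. Its estimate of 0.03 ± 0.19 turned to -0.0037 under quantile normalization and to -0.14 without deltamethrin replicate 2.

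The kinase and its partners had estimates below 0 and none passed. Mtor, the catalytic kinase subunit, read 10.36 and 10.27 with vehicle and 10.17 and 10.15 with deltamethrin. Both deltamethrin arrays lay below both vehicle arrays, but the estimate was small, at -0.16 ± 0.16 (limma adjusted p = 0.738). Deptor, an inhibitor that binds mTOR directly, read 10.42 and 10.57 with vehicle and 10.03 and 10.31 with deltamethrin. Its groups were apart by 0.11, less than the 0.28 between deltamethrin replicates, and the estimate was -0.33 ± 0.18 (adjusted p = 0.5004), or -0.19 without deltamethrin replicate 1. Rptor, whose product raptor recruits substrates to mTORC1, read 8.04 and 8.98 with vehicle and 7.97 and 8.29 with deltamethrin. The vehicle arrays differed by 0.94, the widest gap between replicates among the members, and the groups overlapped. The estimate of -0.38 ± 0.32 (adjusted p = 0.663) became 0.09 without vehicle replicate 2.

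Across the 10 members, 5 estimates were above 0 and 5 below, with a median of -0.06, beside a median of -0.02 over all probe sets. In 3 members (Sesn2, Ddit4 and Tsc1) both deltamethrin arrays were above both vehicle arrays, where 20.3% of all probe sets were so placed. In 2 members (Deptor and Mtor) both were below, where the share over all probe sets was 23.5%. The other 5 overlapped. With 10 genes, these counts are near the background and single out no direction. The 95% intervals of 7 members, which rest on the variance moderated by limma, left out a 2-fold change in either direction. Those of Sesn2 and Ddit4 reached past a 2-fold rise and that of Rptor past a 2-fold fall. Ddit4l is among the 7, but if its dim reading is background, its interval cannot limit a change in its RNA.

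**Figure D3:**
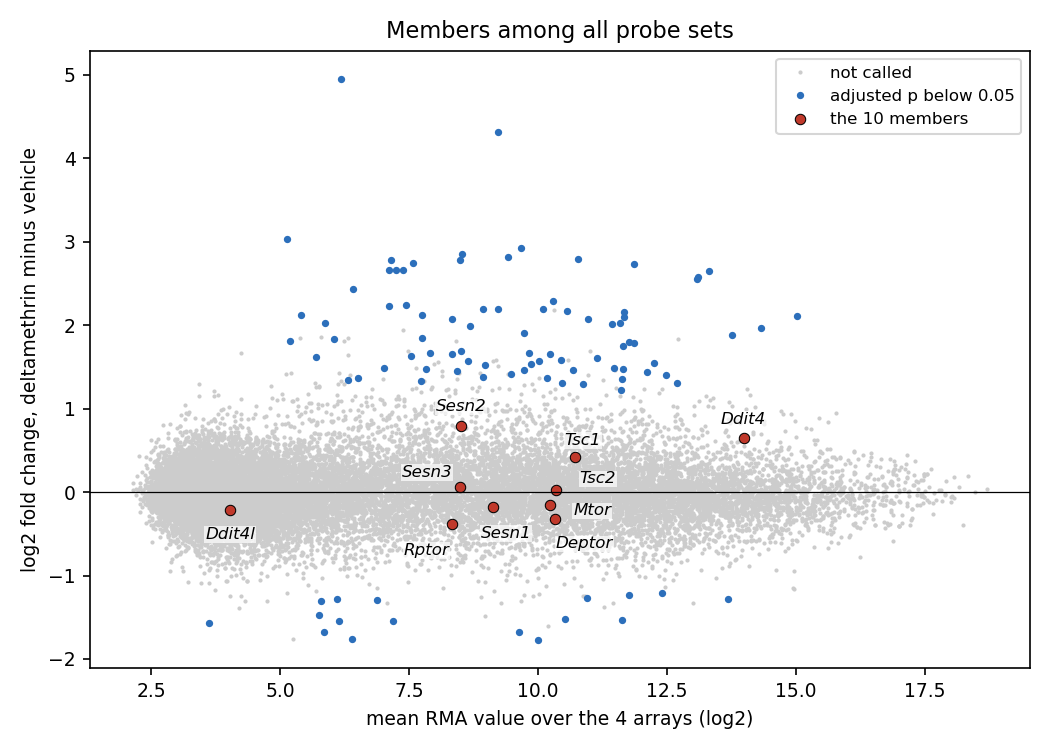
Log2 fold change (deltamethrin minus vehicle) against the mean RMA value (log2) over the 4 arrays for all 22206 probe sets; larger blue points are the 96 called probe sets and red points are the 10 members. Sesn2 (0.79) and Ddit4 (0.65) lie in the upper part of the grey cloud, below the called rises, and the other 8 members lie nearer to 0.

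By the closeness of the 4 array values, taken as log2 deviations from the gene's vehicle mean, the genes nearest to Sesn2 were Ndel1, Entpd5 and Zfp712, with root mean square differences of 0.017, 0.029 and 0.029. Ndel1 encodes a dynein regulator of neuronal migration, Entpd5 a nucleotide phosphatase of the endoplasmic reticulum and Zfp712 a zinc finger protein. Their estimates were 0.81, 0.81 and 0.78, and none passed in limma without the trend (adjusted p = 0.131, 0.132 and 0.143). With the trend Ndel1 and Entpd5 passed and Zfp712 did not (limma adjusted p = 0.0064, 0.0220 and 0.0542). Nearest to Ddit4 were Atp6v1h (0.0087), Thumpd2 (0.015) and Txndc16 (0.016), with estimates of 0.65, 0.65 and 0.63. None of them passed without the trend (limma adjusted p = 0.255, 0.249 and 0.269) or with it (0.0513, 0.220 and 0.210). Atp6v1h encodes a subunit of the proton pump that acidifies lysosomes. The likeness rests on 4 arrays and on responses of like size. Because the genes were picked by this closeness, estimates and adjusted p without the trend near those of Sesn2 or Ddit4 followed from the choice.

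Around the members, 85 genes of the pathway were listed in 6 groups, of which 78 were measured. In limma 1 of them rose and 0 fell, which is 1.28% against 0.432% of all probe sets. With the mean-variance trend 4 passed as higher and 2 as lower, together 7.69% against 3.63% of all probe sets. These 2 shares are not alike, since in every list most measured genes were above the median level of all probe sets. The trend gave bright probe sets such as that of Rragc a smaller SE (0.12 against 0.17). The riser was Ddit3, in the list of transcription factors known to act on sestrin or Ddit4 genes. Ddit3 encodes CHOP, and its brighter probe set went from 11.45 and 12.17 with vehicle to 14.29 and 14.47 with deltamethrin. The rise was 2.57 ± 0.26 on the log2 scale (SE, n = 2; limma adjusted p = 0.0261), with the arrays apart by more than either pair's own spread. The call needed all 4 arrays: it was lost when any 1 of them (vehicle 1 or 2, deltamethrin 1 or 2) was left out, with the replicate number as a block and without moderation of the variance, as were all calls in the series. The other 9 measured factors did not pass. Atf4, the main factor of the integrated stress response, read 16.01 and 16.06 with vehicle and 16.21 and 16.32 with deltamethrin, an estimate of 0.23 ± 0.16. Hif1a was at -0.04, and the median of the list was 0.15, or 0.02 without deltamethrin replicate 2.

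**Figure D4:**
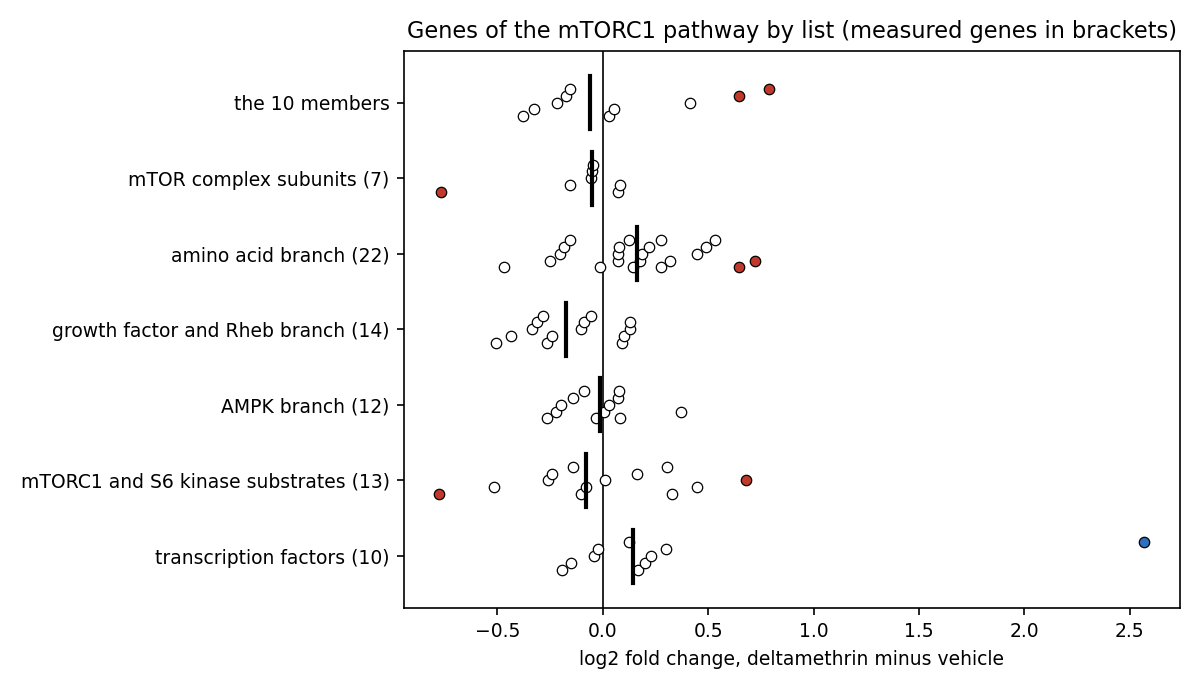
Log2 fold change (deltamethrin minus vehicle) of every measured gene of the members and of the 6 pathway lists, with the number of measured genes in brackets and the list median as a black bar. Blue marks the single gene called without a trend (Ddit3, 2.57), red marks genes that passed only with a mean-variance trend, and open points passed in neither fit.

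In the amino acid branch, which holds the GATOR complexes that sestrins bind, KICSTOR, the Rag GTPases and Ragulator, 0 of 22 measured genes passed and the median was 0.16. Of these 16 had estimates above 0 and 6 below, beside a median of -0.02 over all probe sets. Both deltamethrin arrays were above both vehicle arrays in 10 genes and below in 3, against 20.3% and 23.5% of all probe sets. The share of all probe sets with estimates above 0 was not counted, and no test of the list as a set was run. Rragc, a Rag GTPase, read 13.23 and 13.28 with vehicle and 13.86 and 14.09 with deltamethrin, an estimate of 0.72 ± 0.17 (limma adjusted p = 0.176; 0.0124 with the trend). Lamtor3, a subunit of the Ragulator scaffold, was at 0.65 ± 0.18 (adjusted p = 0.222; 0.0360 with the trend). Both genes were higher on both deltamethrin arrays than on both vehicle arrays, as were 20.3% of all probe sets. Neither was called without the trend, and they are named as the 2 of smallest p in this list.

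Among other subunits and assembly factors of the mTOR complexes, 0 of 7 measured genes passed and the median was -0.05. Tti1, a co-chaperone that helps to build mTOR and related kinases, read 11.56 and 11.50 with vehicle and 10.50 and 11.02 with deltamethrin. Its estimate was -0.77 ± 0.22 (limma adjusted p = 0.220; 0.0493 with the trend). Rictor, the defining subunit of mTORC2, was at -0.16 ± 0.18.

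The substrates of mTORC1 and S6 kinase were spread, with 0 of 13 passing. Their median was -0.08 and turned to 0.14 without vehicle replicate 2. Eif4ebp2, the translation repressor 4E-BP2 that is prominent in brain, was lower, from 10.43 and 10.53 to 9.69 and 9.72. Its estimate was -0.78 ± 0.16 (limma adjusted p = 0.142; 0.0279 with the trend). Pdcd4, a translation inhibitor that S6 kinase marks for destruction, was at 0.68 ± 0.19 (adjusted p = 0.222; 0.0325 with the trend). Eif4ebp1, in the same list and brighter than Eif4ebp2, lay the other way, from 13.82 and 13.86 to 14.15 and 14.42. It was at 0.45 ± 0.18 and passed in neither fit (limma adjusted p = 0.351, or 0.0848 with the trend). These values are transcript levels, and the phosphorylation by which mTORC1 acts on these proteins was not measured.

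In the growth factor and Rheb branch 0 of 14 measured genes passed, with a median of -0.17 and 10 estimates below 0. Both deltamethrin arrays were above both vehicle arrays in 0 genes and below in 5, against 20.3% and 23.5% of all probe sets. The insulin receptor substrate Irs2 was at -0.44 ± 0.19 and the receptor Igf1r at -0.51 ± 0.28 (limma adjusted p = 0.378 and 0.489). In the AMPK branch 0 of 12 passed, and the median was -0.01 with all arrays, -0.17 without vehicle replicate 1 and 0.02 without vehicle replicate 2 or deltamethrin replicate 1. Stradb, a partner of the kinase LKB1, was at 0.37 ± 0.17, and the AMPK subunit gene Prkag2 at -0.27 ± 0.19 (adjusted p = 0.401 and 0.596). Neither branch gained a call with the trend.

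As a check on the cells, all 9 measured markers of sympathoadrenal neuroblasts had means above the median of all probe sets, with Stmn2 the brightest at 16.71 with vehicle. Of 16 measured markers of microglia, astrocytes, oligodendrocytes and Schwann cells, fibroblasts and endothelium, 1 was above that median (Ptprc, mean 5.90 against 5.60). The summed log2 level of these 16 was 68.9 to 70.1 with vehicle and 70.5 to 70.7 with deltamethrin, and 0 of them was called in limma. The difference lay in the fibroblast marker Pdgfrb, at 1.18 ± 0.34 (adjusted p = 0.225): without it the sum of the other 15 was 64.3 to 64.8 with vehicle and 64.2 to 64.7 with deltamethrin. The neuroblast markers had 8 of 9 estimates below 0, with Isl1 at -1.14 ± 0.17 (adjusted p = 0.0740; 0.00173 with the trend). The granin gene Chgb was at -0.54 ± 0.16 (adjusted p = 0.248; 0.0282 with the trend), and the exception was the tyrosine hydroxylase gene Th, at 0.90 ± 0.27 (adjusted p = 0.242; 0.127 with the trend). The part of this shift in the members' values was not tested. The arrays' medians lay between 5.61 and 5.63, and with no batch label used here, batch and group cannot be told apart.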

How the data were processed

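Gene expression was measured in 4 samples, grouped and numbered by their titles. The deposited log2 expression values were made by the authors with Transcriptome Analysis Console and RMA, per the submitters' processing notes, with versions not stated there. They span 1.92 to 18.75, from which the log2 scale was inferred. RMA aligns the arrays, so a shift shared by most genes would not be seen. Of 22206 probe sets, 2634 were unnamed here and the others had 1 symbol each; 0 symbols needed an update by Entrez ID.

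All probe sets were fitted with limma 3.58.1 (R 4.3.3; lmFit, eBayes), deltamethrin minus vehicle, two-sided, with 2 residual and 4.43 prior degrees of freedom and no filter. Precision is limited by the 2 arrays per group (median SE 0.19). The brightest probe set stood for a listed gene. The script was tested on simulated data.

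The members and lists were chosen with earlier results of these data known. Named genes were all members, from each pathway list the called genes (up to 4) or the 2 of smallest p, and the 3 genes nearest to Sesn2 and to Ddit4. Atf4, Hif1a, Eif4ebp1 and the cell markers were named after their values were seen. Alternatives were a replicate block, a filter at the 40th percentile of level, quantile, cyclic loess and median scaling, 3 variance models (trend, robust, no moderation), an adjusted p below 0.01, a 2-fold minimum and each array left out in turn. Of 85 listed pathway genes, 7 had no matched probe set and were not analysed here.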

Additional observations from a re-analysis of the deposited data

How the results depend on the processing

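Of the 14 alternatives, 12 gave estimates for single members, 119 in all, of which 108 kept their sign and stayed uncalled; 2 became calls and 9 turned sign. With a mean-variance trend the members called went from 0 to 2 (Sesn2 and Ddit4), and all calls from 96 to 806; in every other alternative 0 members were called in limma, with 1 to 3 at an unadjusted p below 0.05. The count of all calls was 312 without dim probe sets, 5 at an adjusted p below 0.01 and 0 without moderation (2293 at an unadjusted p below 0.05). With the replicate block it was 0 (3221 at an unadjusted p below 0.05), and the members called stayed at 0. The block was read as a shared number only: over all probe sets the replicates' deviations in the 2 groups correlated at 0.13. Leaving out any 1 array gave 0 calls, from 1631 to 2779 at an unadjusted p below 0.05; the lone array of a group was assumed to vary like the other group. Under quantile normalization Sesn3 was at -0.013 and Tsc2 at -0.0037. With 1 array left out, the estimates ran from -0.50 to 0.15 for Sesn1, -0.25 to 0.36 for Sesn3, -0.54 to 0.11 for Ddit4l, -0.85 to 0.09 for Rptor and -0.14 to 0.20 for Tsc2. Those of Sesn2 (0.77 to 0.82), Ddit4 (0.46 to 0.83), Tsc1 (0.18 to 0.65), Deptor (-0.47 to -0.19) and Mtor (-0.20 to -0.11) kept their sign in all alternatives that were run. With 1 array left out, the list median ran from -0.17 to -0.01 for the mTOR complex subunits, from -0.23 to -0.09 for the growth factor branch and from 0.11 to 0.22 for the amino acid branch. Ddit4l had no value without dim probe sets. The cause of these changes was not tested, and 2 arrays per group limit what any of these fits can show.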
